A study of Arabidopsis thaliana with 6 samples.

Results

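The comparison set seedlings of 2 cytosolic iron-sulphur assembly mutants of Arabidopsis thaliana, pooled, against wild type seedlings. It used 4 mutant arrays, 2 titled nar1-4/- and 2 titled nbp35-3/-, and 2 wild type arrays, which are 6 of the 6 arrays of the series. Arrays were chosen by their titles. All plants, of the Col-0 background, were raised at 22 °C on MS plates with 16 h of light and 8 h of darkness a day, and were frozen whole at an age of 2 weeks. Each gene is represented by 1 mutant allele, the labels do not explain the sign "/-", and for the nbp35 samples the source name has allele nbp35-4 where title and genotype have nbp35-3, which is used here. Every genotype has arrays numbered 1 and 2, which the series' design text calls biological replicates. The labels do not say what arrays of the same number have in common. Labelled cRNA was made from 250 ng of RNA, or from 200 ng for 3 samples given by codes that are not tied to a genotype.

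Iron-sulphur clusters are cofactors of proteins that move electrons, bind DNA or catalyse reactions. In plants they are built by separate machineries in plastids, in mitochondria and in the cytosol. In the cytosolic pathway NBP35 acts as a scaffold on which a cluster is assembled, and NAR1 is a later factor that helps to pass clusters on to cytosolic and nuclear target proteins, among them DNA glycosylases, DNA polymerases and helicases. A transcript difference seen in both mutants relative to wild type is the pattern a pooled comparison looks for.

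Levels are log2 values from Robust Multi-array Average (RMA) processing of ATH1 GeneChips, so a difference of 1 is a 2-fold difference. Each gene's level is that of 1 probe set and is not set against the level of another gene. The 22746 probe sets that are not array controls were tested. Of these, 13513 name 1 gene, 503 name several and 8730 name none in the annotation used. The array medians lay between 5.70 and 5.83 and the first quartiles between 3.48 and 3.58, and levels under the first quartile are called dim here. No probe set naming NAR1 or NBP35 was among those measured, 0 for each, so the genotypes could not be checked on the mutated genes. RCA, the Rubisco activase of green tissue, stood at 13.41 to 13.55 on the mutant arrays and at 13.37 and 13.48 on the wild type arrays, and PYK10, a beta-glucosidase of roots and hypocotyls, at 11.70 to 12.17 and at 12.01 and 12.14, so both shoot and root transcripts were present on every array. As seedlings were taken whole, fewer cells of a type and less RNA per cell cannot be told apart in any value given here.

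The array number separated the arrays more than the genotype did. Over all probe sets, arrays of the same number but different genotype correlated at 0.987 to 0.994, whereas arrays of the same genotype but different number correlated at 0.968 to 0.970. As the comparison was defined, differences from wild type were taken within a number, and the pooled fit held the number as a block. The pooled difference is the mean of the 4 mutant arrays minus the mean of the 2 wild type arrays, given with its standard error from limma (SE, n = 4 and 2). Both mutants were set against the same 2 wild type arrays, so a wild type array that stands high or low moves both mutants the same way in its number, and the mutants' agreement within a number is not independent. Numbers 1 and 2 share no array.

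No probe set passed an adjusted p of 0.05 in limma with Benjamini-Hochberg adjustment (0 of 22746, 0%), and the smallest adjusted p was 0.991. At an unadjusted p under 0.05 there were 934 probe sets (4.11%), 410 higher and 524 lower in the mutants. The median SE of a pooled difference was 0.12. The test between the mutants, nbp35-3 minus nar1-4, also gave 0 calls, with a smallest adjusted p of 0.152 and 1263 probe sets at an unadjusted p under 0.05. None of the differences described from here on therefore passed the adjusted threshold, and every one of them is a description of these 6 arrays.

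A difference was counted as common when nar1-4 and nbp35-3 both lay on the same side of wild type in number 1 and again, on that same side, in number 2. This held for 4988 probe sets (21.9%), of which 2600 were higher (11.4%) and 2388 lower (10.5%) in the mutants. Another 3993 probe sets had both mutants on 1 side of wild type in number 1 and on the other side in number 2, namely 2078 higher in number 1 and lower in number 2, and 1915 the other way round. Over all probe sets the pooled difference in number 1 and that in number 2 correlated weakly, at a Pearson r of 0.111 and a Spearman rho of 0.113 across genes, which are not independent replicates. Of the probe sets at an unadjusted p under 0.05, 899 were common, 399 higher and 500 lower. In 742 probe sets (3.26%) all 4 mutant arrays lay above both wild type arrays, and in 710 (3.12%) they lay below both.

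**Figure D1:**
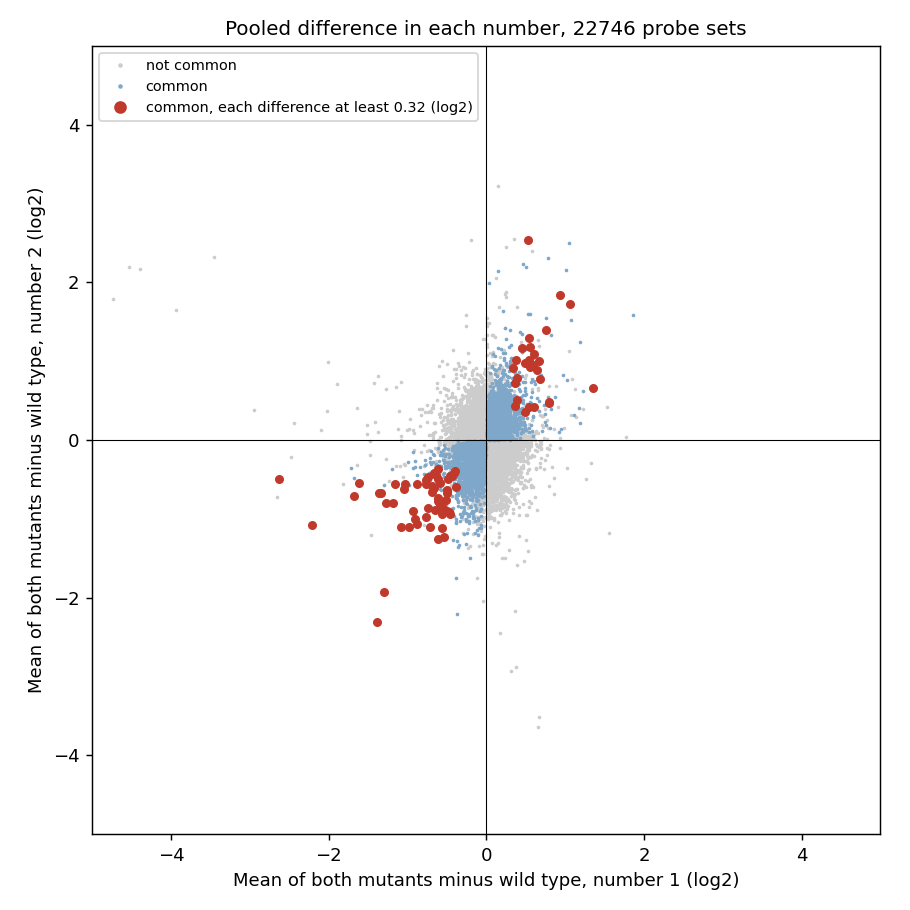
The mean of both mutants minus wild type in number 1 (horizontal axis, log2) against the same in number 2 (vertical axis, log2), 1 point for each of 22746 probe sets. Red points mark the 83 common probe sets with each of the 4 differences at least 0.32 on the log2 scale, and the cloud as a whole shows little slope (Pearson r 0.111).

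Few common differences were large. With each of the 4 differences (2 mutants, 2 numbers) required to be at least 0.32 on the log2 scale, 83 probe sets were left (0.365%), 27 higher and 56 lower, against 31 that met the same size with opposite sides in the numbers. At 1.5-fold there were 14 (0.0615%), 2 higher and 12 lower, against 5 with opposite sides. At 2-fold there were 0, against 1. Within a single number the counts at 1.5-fold were larger: 27 higher and 102 lower in number 1, and 180 higher and 294 lower in number 2. Of the 14, only 4 name 1 gene, 2 higher and 2 lower, and 10 of the 12 lower probe sets name no single gene in the annotation. The probe set with the smallest unadjusted p was one of the unnamed ones. It stood at 3.80 and 6.59 in nar1-4 (numbers 1 and 2) and at 3.77 and 6.51 in nbp35-3, against 4.55 and 7.52 in wild type, a pooled difference of -0.87 ± 0.10 (unadjusted p = 9.5e-05).

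Among probe sets that name 1 gene, 28 genes were singled out, those with the smallest unadjusted p in each direction among common differences and those with the largest smallest difference. The 14 higher genes had pooled differences of 0.49 to 1.40, or 1.40-fold to 2.63-fold, and the 14 lower genes -0.46 to -1.04, or 1.38-fold to 2.06-fold lower. All have an adjusted p of 0.991. In 9 of the 14 higher genes every mutant array lay above both wild type arrays, and in 7 of the 14 lower genes every mutant array lay below both. Over all probe sets these shares were 3.26% and 3.12%, and nothing is read from the gap, since choosing common genes by p or by their smallest difference favours arrays that do not overlap. The mutants themselves differed at an unadjusted p under 0.05 for 3 of the 28, AT4G15680, AT3G50560 and AT2G43590.

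The pair of higher genes with each of their 4 differences at 1.5-fold or more were AT1G72070 and AT4G15680. AT1G72070 stood at 5.47 and 5.73 in nar1-4 and at 5.23 and 6.99 in nbp35-3, against 4.29 and 4.63 in wild type. Every mutant array was above both wild type arrays, the second nbp35-3 array highest, and the pooled difference was 1.40 ± 0.35. AT4G15680 stood at 6.90 and 7.93 in nar1-4 and at 7.55 and 8.92 in nbp35-3, against 6.29 and 6.59 in wild type. Here too the groups did not overlap, the pooled difference was 1.39 ± 0.35, and nbp35-3 lay 0.82 above nar1-4 (95% interval 0.18 to 1.45, unadjusted p = 0.0204).

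AT4G15680 lies in a run of loci numbered next to each other, and the other measured loci of the run stood on the same side. AT4G15660 stood at 5.55 and 6.15 in nar1-4 and at 5.75 and 6.49 in nbp35-3, against 5.05 and 5.23 in wild type, a difference of 0.85 ± 0.16. AT4G15700 stood at 6.18 and 6.45 in nar1-4 and at 6.40 and 6.53 in nbp35-3, against 5.75 and 5.20 in wild type, a difference of 0.92 ± 0.18. In both genes all 4 mutant arrays were above both wild type arrays. AT4G15690, which the rule did not pick and which was looked up for its place in the run, stood at 6.64 and 7.26 in nar1-4 and at 7.29 and 7.67 in nbp35-3, against 6.39 and 6.51 in wild type (0.76 ± 0.22, unadjusted p = 0.0117). In all 4 loci the pooled difference was larger in number 2. Whether these probe sets tell neighbouring loci apart was not tested.

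The other higher genes were mostly of moderate or high level. AT2G39400 had the smallest limma p of the higher genes (unadjusted p = 0.00124). It stood at 9.13 and 7.77 in nar1-4 and at 8.83 and 7.95 in nbp35-3, against 8.38 and 6.92 in wild type, a difference of 0.77 ± 0.14. The mutants' arrays of number 2 lay below wild type of number 1, so the groups overlap until the number is held. AT4G35750 stood at 11.46 and 10.08 in nar1-4 and at 11.55 and 9.96 in nbp35-3, against 11.14 and 9.30 in wild type (0.55 ± 0.12), again with a level over 1 unit lower in number 2 in all genotypes. AT3G45730 showed the same layout at 8.63 and 6.42 in nar1-4 and 8.12 and 6.47 in nbp35-3, against 7.80 and 5.31 in wild type (0.85 ± 0.19).

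WRKY22, a transcription factor of immune signalling and of leaf senescence, stood at 6.60 and 7.07 in nar1-4 and at 6.49 and 6.71 in nbp35-3, against 5.97 and 6.42 in wild type. All 4 mutant arrays exceeded both wild type arrays, by a small margin, and the pooled difference was 0.52 ± 0.13 (unadjusted p = 0.00611). AT5G14410 was similarly even, at 7.31 and 7.41 in nar1-4 and 7.31 and 7.08 in nbp35-3, against 6.80 and 6.79 in wild type (0.49 ± 0.12). AT3G50560 was carried largely by 1 array, at 6.54 and 6.60 in nar1-4 and 6.77 and 7.96 in nbp35-3, against 6.10 and 6.10 in wild type (0.87 ± 0.37, unadjusted p = 0.0534). It is the one gene of the 28 whose 95% interval includes 0, and since the genes were picked partly by p the other intervals carry no support of their own. The remaining higher genes, AT4G23680, AT2G04790, AT3G51400 and AT5G05420, had pooled differences of 0.51, 0.64, 0.63 and 0.56, and AT5G05420 was dim on 2 of its 6 arrays.

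**Figure D2:**
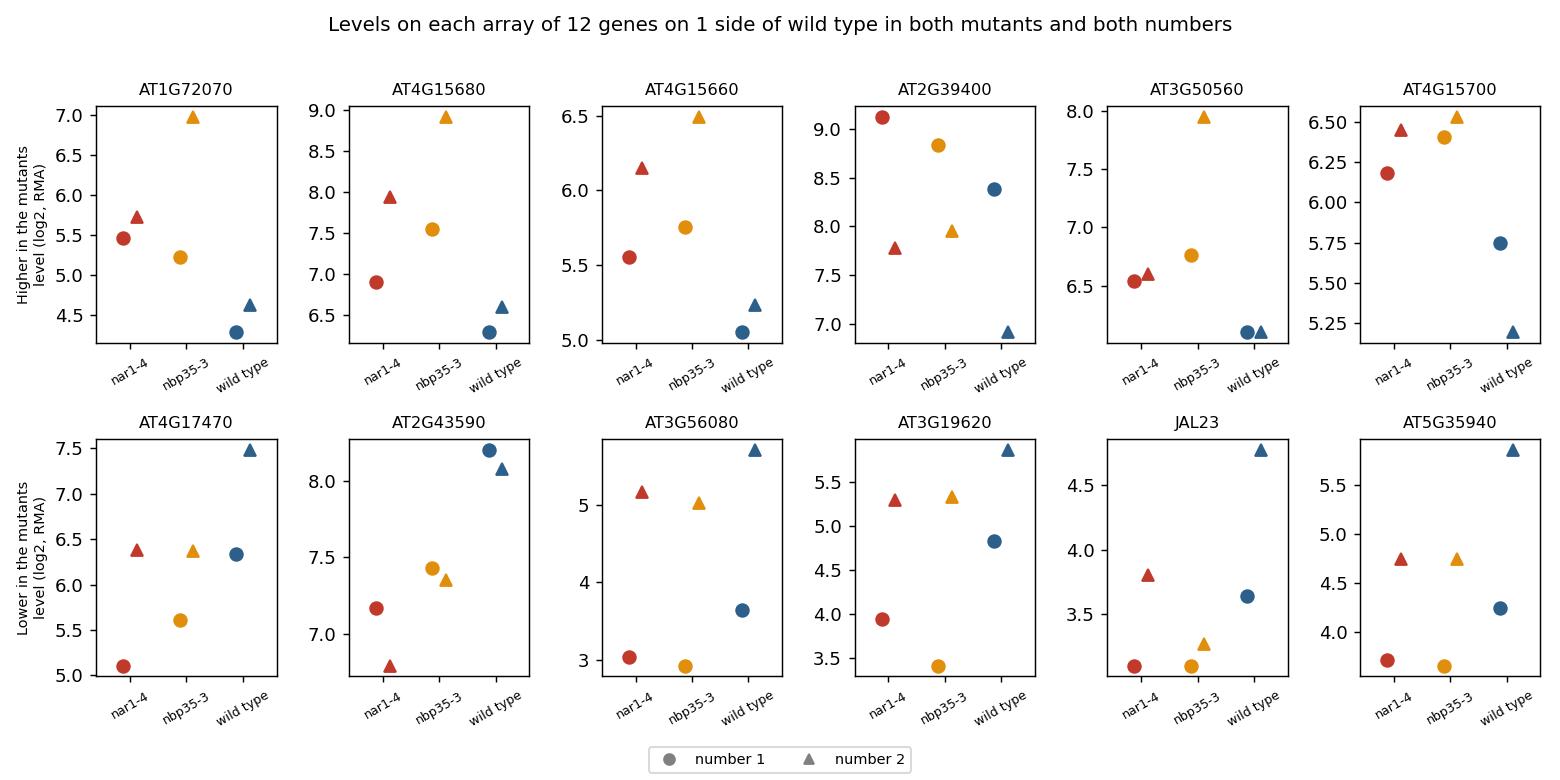
The log2 level on each of the 6 arrays (vertical axes) of the 12 genes with the largest smallest difference, 6 higher in the mutants (upper panels) and 6 lower (lower panels). Circles are number 1 and triangles number 2, nar1-4 and nbp35-3 stand left of wild type, and AT1G72070 shows all 4 mutant points between 5.23 and 6.99, above wild type at 4.29 and 4.63.

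AT4G17470 had the smallest limma p of the genes that could be named (unadjusted p = 0.000375). It stood at 5.11 and 6.38 in nar1-4 and at 5.61 and 6.37 in nbp35-3, against 6.33 and 7.48 in wild type. The mutants of number 2 lay just above wild type of number 1, and within each number both mutants were lower (pooled difference -1.04 ± 0.15). AT2G43590 stood at 7.17 and 6.79 in nar1-4 and at 7.43 and 7.35 in nbp35-3, against 8.20 and 8.08 in wild type. No mutant array reached wild type, the pooled difference was -0.95 ± 0.18, and nbp35-3 lay 0.41 above nar1-4 (unadjusted p = 0.022). AT5G59680 did not overlap either, at 5.01 and 4.33 in nar1-4 and 4.62 and 4.82 in nbp35-3, against 5.53 and 5.67 in wild type (-0.91 ± 0.19).

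APL3, a large subunit of ADP-glucose pyrophosphorylase, which makes the sugar nucleotide used for starch, stood at 4.13 and 4.86 in nar1-4 and at 4.19 and 4.76 in nbp35-3, against 4.82 and 5.23 in wild type. Within a number the mutants lay close to each other, both were below wild type of the same number, and the pooled difference was -0.54 ± 0.11 (unadjusted p = 0.00189). UGT76B1, a glycosyltransferase that acts on salicylic acid and isoleucic acid and tempers defence, stood at 7.21 and 7.69 in nar1-4 and at 7.16 and 7.63 in nbp35-3, against 7.78 and 7.99 in wild type (-0.46 ± 0.11, unadjusted p = 0.00396). JAL23, a jacalin-related lectin, stood at 3.10 and 3.80 in nar1-4 and at 3.10 and 3.27 in nbp35-3, against 3.64 and 4.77 in wild type (-0.89 ± 0.21). JAL23 was dim on 3 of the 6 arrays, so its difference rests on levels near the floor of the arrays.

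AT5G58980 was among the most even of the lower genes, at 5.74 and 5.61 in nar1-4 and 5.64 and 5.69 in nbp35-3, against 6.18 and 6.15 in wild type (-0.49 ± 0.10). AT4G29700 stood at 5.05 and 6.16 in nar1-4 and at 5.25 and 5.98 in nbp35-3, against 5.91 and 6.62 in wild type (-0.66 ± 0.12), and AT5G35940 at 3.72 and 4.74 in nar1-4 and 3.65 and 4.74 in nbp35-3, against 4.24 and 5.86 in wild type (-0.83 ± 0.14). In both genes the level was higher in number 2 in every genotype. The pooled differences of the other lower genes were -0.64 for AT3G56080, -0.58 for AT1G24320, -0.67 for AT1G16850, -0.85 for AT3G19620 and -0.69 for AT3G47050. AT3G47050 was dim on 4 of the 6 arrays, AT3G56080 and AT1G24320 on 2 each, and AT1G16850 and AT3G19620 on 1 each.

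**Figure D3:**
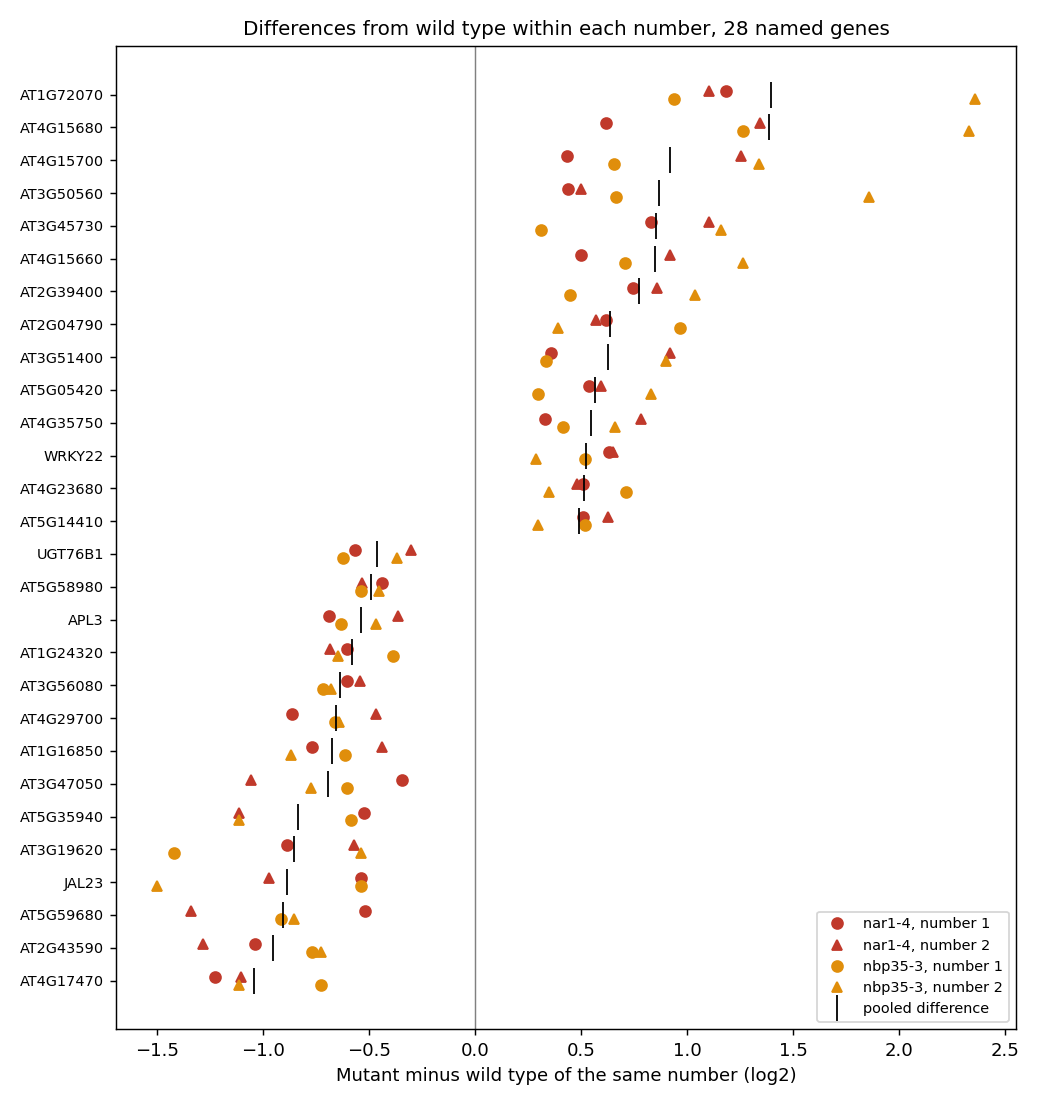
Each mutant array minus the wild type array of the same number (horizontal axis, log2) for the 28 named genes, 1 gene to a line. Red is nar1-4, orange nbp35-3, circles number 1, triangles number 2, and the bar is the pooled difference, from -1.04 for AT4G17470 to 1.40 for AT1G72070. All 4 points of a gene lie on 1 side of 0 because that was required of the genes.

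Most genes above carry only a locus name, so a further 10 genes with a symbol were picked after their values were seen, from common differences of at least 0.32 on every mutant array or of at least 1 when pooled. Genes of the cell wall and the cytoskeleton were among them. GH9B13, a glycosyl hydrolase of the family that holds plant endoglucanases, stood at 6.99 and 6.75 in nar1-4 and at 8.27 and 6.38 in nbp35-3, against 8.71 and 7.67 in wild type (-1.09 ± 0.33). SP1L2, a relative of the microtubule protein SPIRAL1, stood at 5.82 and 5.21 in nar1-4 and at 6.43 and 5.90 in nbp35-3, against 7.39 and 6.35 in wild type (-1.03 ± 0.26). For SP1L2 the lower level was more marked in nar1-4, and the mutants differed at an unadjusted p of 0.00808. XTH20, a xyloglucan endotransglucosylase/hydrolase, stood at 4.67 and 5.13 in nar1-4 and at 4.23 and 4.68 in nbp35-3, against 5.15 and 5.49 in wild type (-0.64 ± 0.18), with the lower level more marked in nbp35-3. On the higher side, EXLA1, an expansin-like protein, stood at 9.78 and 8.29 in nar1-4 and at 9.30 and 9.76 in nbp35-3, against 9.01 and 7.43 in wild type (1.06 ± 0.44), with the second nbp35-3 array 2.33 above its wild type.

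COR15A, a cold-regulated chloroplast protein that protects membranes during freezing, had the largest pooled difference of the genes with a symbol. It stood at 7.22 and 7.51 in nar1-4 and at 6.33 and 7.78 in nbp35-3, against 9.41 and 8.13 in wild type, a difference of -1.56 ± 0.49. No mutant array reached either wild type array, but the pooled difference was -2.63 in number 1 and -0.49 in number 2, so most of it lay in number 1, where wild type was high. The pooled value alone does not show that unevenness. JRG21, a jasmonate-regulated gene, was uneven the other way, at 4.02 and 5.67 in nar1-4 and 3.58 and 6.75 in nbp35-3, against 3.33 and 3.97 in wild type (1.36 ± 0.46), and its pooled difference was 0.47 in number 1 and 2.24 in number 2. PDF1.4, of the plant defensin family, stood at 5.70 and 6.82 in nar1-4 and at 3.93 and 6.33 in nbp35-3, against 3.74 and 5.05 in wild type (1.3 ± 0.46), with nbp35-3 closer to wild type in number 1.

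Smaller differences were seen for 3 others. SDP1, a lipase that breaks down stored triacylglycerol in seedlings, stood at 9.55 and 8.79 in nar1-4 and at 9.31 and 8.78 in nbp35-3, against 8.94 and 8.44 in wild type (0.42 ± 0.11). PRXR1, a peroxidase, stood at 11.65 and 11.55 in nar1-4 and at 11.71 and 11.41 in nbp35-3, against 12.07 and 11.88 in wild type (-0.39 ± 0.10), and no mutant array reached wild type. The serine carboxypeptidase-like gene scpl20 stood at 5.42 and 6.10 in nar1-4 and at 5.34 and 5.59 in nbp35-3, against 5.89 and 6.60 in wild type (-0.63 ± 0.16).

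A large pooled difference did not by itself mean a common one. Pooled differences of at least 2-fold were seen in 61 probe sets, 30 higher and 31 lower. Of these, 34 were common, 27 were not, and 12 had pooled differences of opposite sign in the numbers. AT2G04050 had a pooled difference of 1.72 ± 1.04 and counted as common. It stood at 6.51 and 6.41 in nar1-4 and at 3.15 and 3.79 in nbp35-3, against 2.98 and 3.51 in wild type, so nbp35-3 was only 0.18 and 0.28 above wild type and the pooled value came almost wholly from nar1-4. Its neighbour in the list, AT2G04070, stood at 5.20 and 6.20 in nar1-4 and at 4.27 and 4.16 in nbp35-3, against 4.15 and 4.14 in wild type. Both mutants were counted on the higher side for this gene too, although nbp35-3 differed from wild type by only 0.13 and 0.02. Counting sides alone therefore takes in genes of this kind, which the requirement of 0.32 in each difference removes.

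The genes of known pathways were described from lists of 39 functional groups, which named 1049 loci in the gene table and of which 180 were measured by a probe set naming them. The lists took genes by names or descriptions in the gene table, so group members not matched there are left out. A list's counts, also where it had no common member, cover only its measured members and do not stand for the whole group. No member of any list was called, and the medians below are set beside the median of all probe sets, 0.0032. Counts of common members are to be read against the shares over all probe sets, 11.4% higher and 10.5% lower, and were not tested. The split between these shares depends on the normalization, as given below. The pathway itself was covered by 1 gene. AT3G02280, named TAH18 in the gene table and in yeast a source of electrons for the early cytosolic assembly steps, stood at 6.82 and 6.44 in nar1-4 and at 6.78 and 6.44 in nbp35-3, against 6.63 and 6.42 in wild type (0.09 ± 0.10). Both mutants were above wild type in both numbers, but by 0.02 or less in number 2. Of the organellar assembly factors 5 were measured, with a median of 0.15 and a range of -0.23 to 0.18, and 1 was common. That was CPNIFS, the cysteine desulphurase that supplies sulphur in plastids (0.15 ± 0.12). ISU1, the mitochondrial scaffold (0.16 ± 0.12), HCF101, a plastid carrier of clusters (0.18 ± 0.11), and SUFE2, an activator of the plastid desulphurase (-0.23 ± 0.17), were not.

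The measured cluster-receiving proteins and genes of DNA replication and the DNA damage response included no common member. DME, the DNA glycosylase that removes 5-methylcytosine in the female gametophyte, differed by 0.05 ± 0.11. ICU2, the catalytic subunit of DNA polymerase alpha, was above wild type in number 1 by 0.29 in nar1-4 and 0.54 in nbp35-3, and below it in number 2 (-0.60 in nar1-4 and -1.09 in nbp35-3). The 2 measured DNA replication genes, ICU2 and the MCM helicase subunit PRL, had a median of -0.18, and the 2 measured genes of the DNA damage response, ATLIG4, a DNA ligase, and SIM, a cyclin-dependent kinase inhibitor, one of 0.04. None of these 4 was common. The 3 measured mitosis genes had a median of -0.20, and AUR1, an Aurora kinase, was lower in every within-number difference (-0.31 ± 0.13, unadjusted p = 0.052). Its relative AUR2 was lower in 3 of the 4 (-0.20 ± 0.13).

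Of the 3 measured genes of the silenced and imprinted list, MPC, a maternally expressed gene, was common and higher. Its pooled difference was 0.28 ± 0.11 (unadjusted p = 0.0483), and it was dim on all 6 arrays. QQS, a gene known for variable DNA methylation, was higher in nbp35-3 alone, at 5.11 and 4.66 in nar1-4 and 6.28 and 6.36 in nbp35-3, against 4.99 and 5.21 in wild type. ADMETOS (AT4G11940), an imprinted gene of the seed, was dim on all 6 arrays and differed by 0.11.

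The list of mitochondrial stress genes had the highest median of any list with 3 or more measured members, 0.51 over 6 members, with 2 common and higher. The median was 1.39 in nar1-4 and -0.14 in nbp35-3, so the pooled value came from nar1-4, as it did for AT2G04050 and AT2G04070, which are the 2 common members. AT2G21640 stood at 7.29 and 7.11 in nar1-4 and at 5.74 and 5.11 in nbp35-3, against 5.37 and 5.82 in wild type. NDB4, an NAD(P)H dehydrogenase of the mitochondrial inner membrane, differed by 0.31, and nbp35-3 was below wild type in number 2.

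Of the 5 measured genes on the glutaredoxin list 3 were common and lower, with a list median of -0.19. The list took genes by the names in the gene table, so loci that carry no such name there, among them the run from AT4G15660 to AT4G15700 that stood higher, were not placed on it, and its counts do not stand for the whole family. ROXY1, a glutaredoxin of petal development, was lower by similar amounts on all 4 mutant arrays (-0.27 ± 0.10, unadjusted p = 0.029), GRX480 was lower mainly in number 2 (-0.59 ± 0.30), and GRXC2 differed by -0.19 ± 0.11. ROXY2 was not common (0.20 ± 0.12). Of 14 glutathione transferases 1 was common, GSTU20, which was lower (-0.63 ± 0.29). The list median was -0.11, and GSTU22 had the smallest unadjusted p, 0.049 (-0.47 ± 0.19). Of 2 antioxidant enzymes the stromal ascorbate peroxidase SAPX was lower in all 4 differences (-0.14 ± 0.10).

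Of the 3 measured iron deficiency genes, PYE, a transcription factor that adjusts iron homeostasis in the root, was common and higher (0.27 ± 0.18). BHLH101, a regulator induced by iron shortage, was 0.62 and 2.09 above wild type in nar1-4, and differed from it by 0.17 and -0.62 in nbp35-3. AT3G13610, the feruloyl-CoA hydroxylase F6'H1 of coumarin synthesis, differed by -0.43 ± 0.24. In sulphur metabolism, APS4, an ATP sulphurylase, was common and lower at 7.87 and 7.87 in nar1-4 and 8.39 and 8.41 in nbp35-3, against 8.86 and 8.55 in wild type (-0.57 ± 0.21, unadjusted p = 0.0348), and BCAT4, an aminotransferase of methionine-derived glucosinolates, was common and lower (-0.34 ± 0.14).

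The cold, dehydration and abscisic acid list had the lowest median of any list with 3 or more measured members, -0.52 over 4 members, of which 2 were common and lower. Beside COR15A, its close relative COR15B stood at 6.83 and 7.06 in nar1-4 and at 5.71 and 6.69 in nbp35-3, against 7.15 and 7.32 in wild type (-0.66 ± 0.31). LTI30, a dehydrin, was lower in 3 of the 4 differences (-0.37 ± 0.26). COR47, the remaining measured member, was level with wild type (-0.003 ± 0.11). The list median was -0.75 in number 1 and -0.28 in number 2. Of the 4 flavonoid genes, with a median of -0.25, none was common. DFR, the dihydroflavonol reductase of anthocyanin synthesis, differed by -2.58 in nar1-4 and -1.04 in nbp35-3 in number 1, and by 0.21 in nar1-4 and -1.31 in nbp35-3 in number 2.

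In the hormone and growth lists, differences ran in both directions. Of 17 auxin genes 2 were common and higher and 1 common and lower, around a median of 0.02, counts close to the shares over all probe sets (11.4% and 10.5%). IAA29, an auxin response repressor, was higher by 0.55 ± 0.17 (unadjusted p = 0.0146), LBD16, a regulator of lateral root initiation, by 0.26 ± 0.10, and GH3.9, of a family that joins auxin to amino acids, was lower (-0.45 ± 0.12, unadjusted p = 0.00688). Of 25 cell wall expansion genes 1 was common and higher and 5 common and lower, although the median was 0.06. The higher one, EXPB5 (0.23 ± 0.12), was dim on all 6 arrays, and EXLA1, described above as higher, was not on this list. EXPB3, a beta-expansin, stood at 6.30 and 7.45 in nar1-4 and at 6.71 and 7.09 in nbp35-3, against 6.93 and 8.14 in wild type (-0.64 ± 0.18, unadjusted p = 0.0112). XTH20, XTH21 (-0.40 ± 0.13) and EXPB2 (-0.33 ± 0.11) were also among the 5. Of 6 class III peroxidases 1 was higher and 1 lower among the common ones, PRX52 (0.79 ± 0.38), which was high on 1 array, and Prx37 (-0.38 ± 0.12, unadjusted p = 0.0159). PRXR1, the peroxidase described above as lower, was not among the 6.

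The remaining lists held few measured genes or stayed close to 0. In photosynthesis, 3 of 8 nuclear genes and 3 of 20 organelle-encoded genes were common and higher and none lower, with medians of 0.06 and 0.08. PSBY, a small photosystem II protein, was higher by 0.14 ± 0.10, and CHLM, a methyltransferase of chlorophyll synthesis, by 0.17 ± 0.10. Of 15 organelle-encoded ribosomal proteins 2 were common and higher and 1 lower (median -0.04). Of 4 senescence genes WRKY22 was common, whereas WRKY53 was higher in nar1-4 on both arrays and in nbp35-3 on 1 (0.36 ± 0.34). AGL24, a MADS-box promoter of flowering, was the measured gene of its list and was common and lower (-0.52 ± 0.21, unadjusted p = 0.0426). EIN3, a transcription factor of ethylene signalling, was common and higher (0.18 ± 0.15), and the clock gene GI common and lower (-0.17 ± 0.13). JRG21, described above as jasmonate-regulated, was common and higher but was not on the jasmonate list. That list (4 genes, median -0.34), the heat shock list (4, -0.18), the chitinases (2, -0.28) and the root markers (3, 0.0016) had no common member. The salicylic acid and defence list (2, -0.26) had 1, GRX480, which is also counted among the glutaredoxins, and the list of embryo and seed genes (2, 0.30) had none, with M17 dim on 5 of 6 arrays. These medians were uneven between numbers 1 and 2. They were 0.21 and -0.87 for jasmonate, 0.06 and -0.64 for heat shock, and -0.01 and -0.54 for chitinases. For root markers they were 0.30 and -0.05, for salicylic acid and defence 0.07 and -0.59, and for embryo and seed 0.03 and 0.57.

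**Figure D4:**
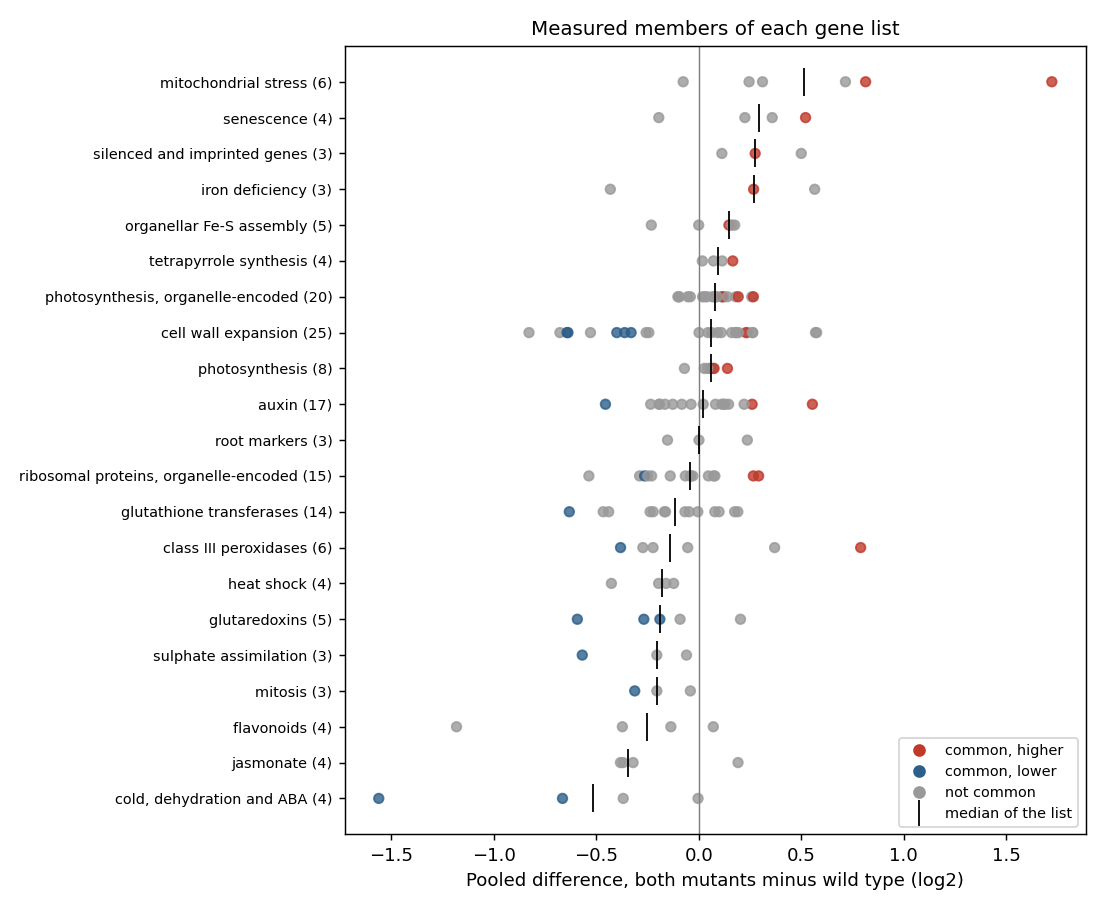
Pooled difference of both mutants minus wild type (horizontal axis, log2) for the measured members of each list with at least 3 of them, the number in brackets. Red and blue points are common and higher or lower, grey points are not common, and the black bar is the list's median, which runs from -0.52 for cold, dehydration and abscisic acid to 0.51 for mitochondrial stress.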

How the data were processed

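The 6 whole-seedling samples were hybridised to ATH1 arrays. The deposited log2 values were made by the authors with RMA, per the submitters' processing notes, and further settings are not given in the sources used here. They were used as deposited. The 64 control probe sets were set aside. Samples were grouped by title. The pooled comparison was fitted in limma 3.58.1 (R 4.3.3) as number plus mutant against wild type, with empirical Bayes moderation (3 residual and 3.41 prior degrees of freedom), two-sided, with Benjamini-Hochberg adjustment over 22746 probe sets. Unadjusted p-values are from the same limma fit. Genes and loci were named through a platform annotation and a RefSeq gene table (TAIR10.1). No coordinates are printed. The number of arrays, 6, limits the precision.

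The members, lists and rules were chosen with earlier results of these data known. Named genes were, among common probe sets naming 1 gene, the 12 in each direction with the smallest p and the 6 with the largest smallest difference, plus up to 4 per list by p. The split of organelle-encoded genes and the group of further genes with a symbol were chosen after the values were seen. The number was held as a block because the comparison was defined so. The number 1 minus number 2 difference correlated at 0.814 between nar1-4 and wild type, 0.694 between nbp35-3 and wild type and 0.674 between nbp35-3 and nar1-4 across probe sets. The labels do not say whether arrays of a genotype came from separate plants beyond calling them biological replicates. The p-values therefore measure the spread between these arrays, which in the pooled fit includes differences between the mutants. A planned description of promoter motifs was not made, and no sequence was used here.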

Additional observations from a re-analysis of the deposited data

Results flagged for a closer look

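For 5 genes, 1 of the 4 mutant arrays stood far from the other 3 in its difference from the wild type array of the same number, by Dixon's criterion on the gap over the range. PRX52 was 1.86 above wild type in nar1-4 number 1 and 0.31 to 0.50 above it on the other mutant arrays. SDP1 was 0.61 above wild type in nar1-4 number 1. AT3G50560 was 1.86, scpl20 -1.01 and CPNIFS 0.40 from wild type in nbp35-3 number 2. Chance alone marks a small share of such groups of 4, and 3 of the 5 are on the same nbp35-3 array. Over all probe sets, the differences of that array had the largest standard deviation, 0.37. On the other mutant arrays it was 0.25 to 0.31. The share of all probe sets meeting the criterion is not given here, and the 4 differences share wild type arrays. Nothing is therefore read from these counts.

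Over all probe sets, nar1-4 was higher and nbp35-3 lower than wild type in both numbers in 710, and the other way round in 857. Of the genes described above, 2 did so. PRL was higher in nar1-4 and lower in nbp35-3, with nbp35-3 minus nar1-4 at -0.64 (unadjusted p = 0.0172 in limma). ATLIG4 was lower in nar1-4 and higher in nbp35-3, with nbp35-3 minus nar1-4 at 0.19 (unadjusted p = 0.174). Neither difference passed the adjusted threshold.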

How the results depend on the processing

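The count of called probe sets stayed at 0 under all 18 alternatives, with a smallest adjusted p of 0.241, reached without wild type replicate 1. At an unadjusted p under 0.05 the count was 934, and it was 227 without the replicate block, 1287 without wild type replicate 1 and 273 without wild type replicate 2. The block changed no call, since there were none. The 4988 common probe sets became 2688 (1497 higher, 1191 lower) among those above the median level and 2976 (1595 higher, 1381 lower) among those naming 1 gene, both by testing fewer probe sets. Centring on the array medians gave 5022 (3007 higher, 2015 lower), and repeated quantile normalization gave 5099 (2594 higher, 2505 lower). With centring, 437 were higher and 456 lower at an unadjusted p under 0.05 in limma. The split between directions therefore depends on the normalization. Leaving out a mutant array, an alternative added after seeing the data, asks for 3 differences in place of 4 and gave 7274 to 8269 common probe sets, 3722 to 4232 higher and 3419 to 4260 lower. At 1.5-fold the 14 became 7 (1 higher, 6 lower) above the median level, 83 (27 and 56) at a threshold of 0.32 on the log2 scale, 0 at 2-fold (0 and 0), and 28 to 85 (5 to 43 higher, 19 to 42 lower) without a mutant array, the 85 without nbp35-3 replicate 1. Without a wild type array there is no common count.

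The 28 named genes kept their sign in 336 recomputed values, none called. They had been chosen with every mutant array on 1 side of wild type within each number. Leaving out an array averages differences that already share a sign, so the kept signs follow largely from that choice. Nothing is read from them. Of 65 other named genes, not all of which were common, 10 changed sign in 15 of 780 values. The sets were chosen by different rules, so their counts are not compared. Centring on the median moved ATLIG4 to 0.0079. Leaving out 1 array gave -0.52 to 0.058 for SUFE2, -0.037 to 1.12 for BHLH101, -0.85 to 0.41 for ICU2, -0.083 to 0.061 for ATLIG4, -0.12 to 0.53 for COR27, -0.058 to 0.15 for DME, -0.073 to 0.29 for SIM, -0.0029 to 0.33 for ISU1, -0.36 to 0.075 for PRL and -0.88 to 0.027 for ATHSP22.0. The cause was not tested. The fit had 3 residual degrees of freedom, and the median SE was 0.12. Each gene has its own SE, and a difference larger than its SE can still be within the error. DFR, at -1.18 ± 0.59, had a 95% interval of -2.59 to 0.23. The promoter motifs were not run.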

Other observations

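Some of the widest differences between the mutants and wild type turned round between the numbers. In 6 probe sets the mean of both mutants lay 2-fold or more away from wild type in each number but in opposite directions, 5 of them lower in number 1. Such a distance in 1 direction in both numbers was seen in 12 probe sets, 7 higher and 5 lower. As a mean of both mutants, it can come from 1 mutant alone, as it did for AT5G14940 below. The genes named here were chosen after their values were seen. AT3G02480 stood at 5.22 in nar1-4 and 6.97 in nbp35-3 against 10.49 in wild type in number 1, and at 6.47 in nar1-4 and 8.88 in nbp35-3 against 5.50 in wild type in number 2. PDF1.2, a plant defensin induced by jasmonate and ethylene, stood at 5.86 in nar1-4 and 6.68 in nbp35-3 against 4.71 in wild type in number 1, and at 4.13 in nar1-4 and 4.82 in nbp35-3 against 5.65 in wild type in number 2.

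Among the higher ones of these 12, AT5G39580 had the largest pooled difference, 1.78 ± 0.66, with 1.06 in number 1 and 2.5 in number 2. The mutants were uneven for AT5G39580. In number 1 nar1-4 lay 1.84 and nbp35-3 0.27 above wild type, and in number 2 nar1-4 lay 1.57 and nbp35-3 3.42 above it. AT5G14940 had pooled differences of -1.46 in number 1 and -1.20 in number 2 but was not common. These came from nar1-4, which differed from wild type by -2.99 and -2.37, whereas nbp35-3 differed by 0.08 and -0.03. The mutants differed from each other at an unadjusted p of 1.6e-05 in limma.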
